A study of Rattus norvegicus with 12 samples.

Results

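The solute carrier families Slc6, Slc7, Slc16, Slc22 and Slc38 move amino acids, osmolytes, lactate, creatine and organic ions across cell membranes. Their genes were described in the atria of rats with an overloaded heart. The members were all genes whose only symbol in the array's annotation carried one of these family names, with 1 exception that is not analysed here. This gave 61 of the 14217 genes that had a probe set (a group of short probes for 1 transcript) of their own. They were 14 Slc6, 14 Slc7, 9 Slc38, 9 Slc16 and 15 Slc22 genes. Where a gene had several probe sets, which was so for 13 members, the probe set of highest mean over all 12 was used.

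The animals were male Sprague-Dawley rats, with a labelled weight of 225 to 275 g and no labelled age. All had an operation 28 days before the atrial appendages were taken, either an aorto-caval shunt, which joins the large abdominal artery and vein and loads the heart with volume, or a sham operation. Each atrium was taken after each operation, which gave 4 groups of 3 arrays. An array held RNA pooled from 2 tissues, so each replicate (n = 3 per group) is a pool, and p-values measure the spread between pools. The labels do not say whether left and right pools share rats, and their tissue entry names ventricles besides atria. In whole tissue, fewer cells of a type and less RNA per cell cannot be told apart.

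Values are log2 RMA values (background-subtracted, quantile-normalized and summarised per probe set), on which a difference of 1 is a 2-fold change. A member was called when its adjusted p (limma, Benjamini-Hochberg over 31042 probe sets) was under 0.05. The arrays carry no detection calls. Of the 61 members, 22 had a mean at or above the median of all probe sets (5.46) and 39 lay below it. A low value may be mostly background signal. The atrial genes Nppa, which encodes the atrial natriuretic peptide, and Myl7, the atrial regulatory light chain, lay at 14.37 to 14.43 and at 14.06 to 14.27 over the 12 arrays, close to the top of the scale. The first principal component, with 60.5% of the variance, parted right from left arrays. Arrays are called by atrium, operation and replicate number. The left shunt array 3 had the lowest mean correlation with the rest of its group among the 12 arrays (0.989).

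As background, Slc6 carriers use sodium and chloride gradients to take up neurotransmitters, amino acids, taurine and creatine. Slc7 carriers exchange cationic or neutral amino acids, several of them only when paired with the heavy chain Slc3a2, and Slc38 carriers move glutamine and other small neutral amino acids with sodium. Slc16 carriers move lactate, pyruvate, ketone bodies and related molecules, some with the chaperone Bsg, and Slc22 carriers move organic cations and anions, among them monoamines. Heart muscle takes up lactate as fuel, stores taurine and creatine at high levels, and clears noradrenaline partly through the organic cation carrier Slc22a3.

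The first question was which carriers changed with volume overload. Averaged over both atria, 9 of 61 members were called (14.8%, against 3.86% of all probe sets), 5 higher (2.31% of all probe sets) and 4 lower (1.55%). The fit of this average treats left and right pools as independent. If they share rats and vary together, its p-values are too small. Higher after the shunt were 3 of the 9 Slc16 genes, Slc16a1, Slc16a6 and Slc16a12, together with the taurine carrier Slc6a6 and Slc38a6. Lower were the Slc22 genes Slc22a3 and Slc22a17, the glutamine carrier Slc38a3 and the vesicular amino acid carrier Slc6a17. In the right atrium 8 of 61 members were called (13.1%, against 2.97%), 3 higher (1.9% of all probe sets) and 5 lower (1.07%). In the left atrium 4 of 61 were called (6.56%, against 0.751%), 1 higher (0.283% of all probe sets) and 3 lower (0.467%). Sham and shunt arrays did not overlap for 27 members in the right atrium (28.4% of all probe sets) and for 19 in the left (16.9%). Slc22a3 and Slc38a3 were called in each atrium. Of the 10 members called in at least 1 atrium, 7 had the same sign in the other. The median difference over the 61 members was -0.02 in the right atrium and -0.02 in the left, against 0.02 and -0.01 over all genes.

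**Figure D1:**
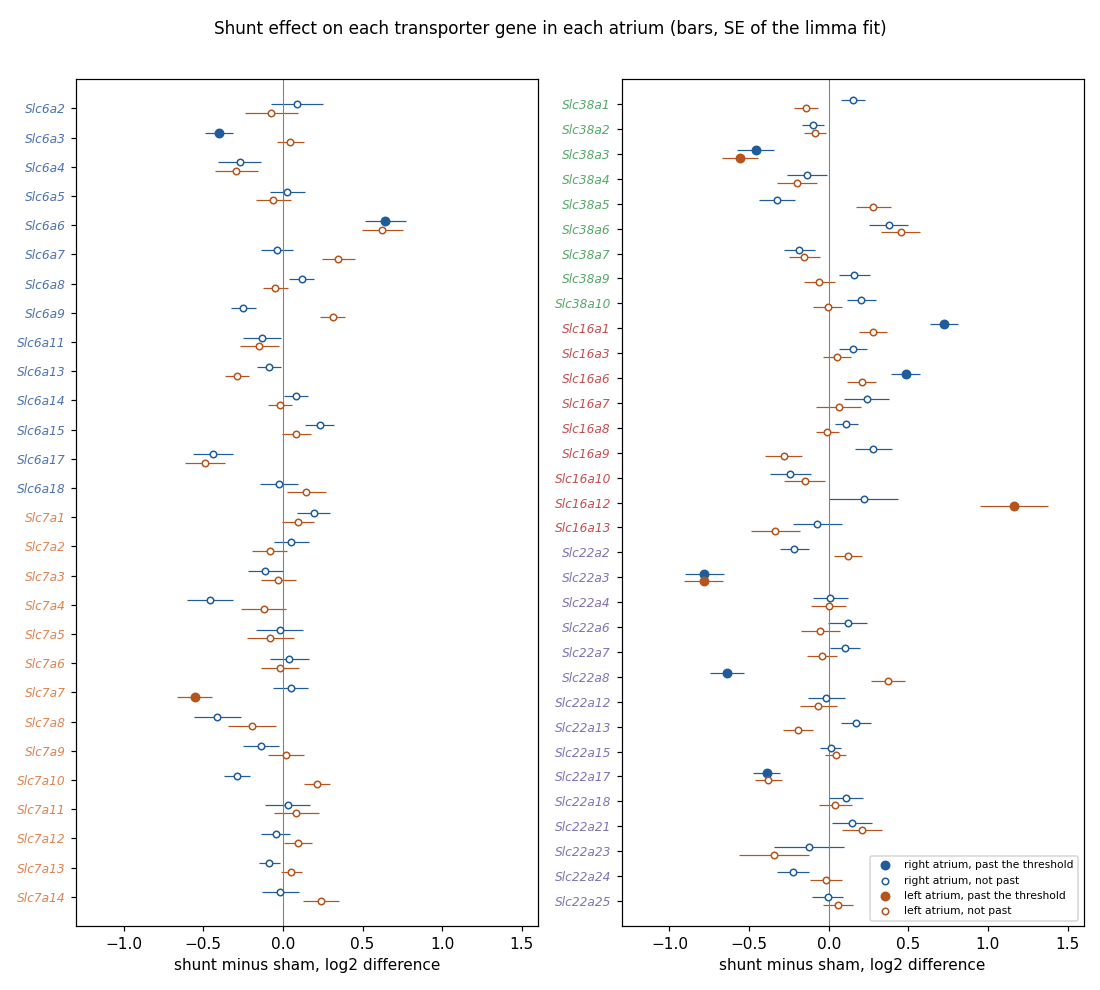
Shunt minus sham log2 difference of each of the 61 transporter genes (rows, coloured by family) in the right atrium (blue) and the left atrium (orange), with the SE of the limma fit as bars. Filled points passed the threshold: 8 in the right atrium, with Slc16a1 highest and Slc22a3 lowest, and 4 in the left, with Slc16a12 highest and Slc22a3 lowest.

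Among the monocarboxylate carriers, Slc16a1, the lactate and pyruvate carrier MCT1, lay at 9.08, 9.06 and 9.0 on the right atrium sham arrays and at 9.57, 9.86 and 9.88 on the right atrium shunt arrays. All 3 shunt arrays were above all 3 sham arrays. Slc16a1 rose by 0.72 ± 0.09 (log2 difference ± SE, n = 3, adjusted p = 0.00194), and the call held whichever array was left out, with a highest adjusted p of 0.0165. In the left atrium it lay at 9.67, 9.56 and 9.62 in sham and at 9.89, 9.97 and 9.82 after the shunt, a difference of 0.28 ± 0.09 (adjusted p = 0.174) between groups that did not overlap. Averaged over both atria it rose by 0.50 ± 0.06 (adjusted p = 0.000884). A second, dim Slc16a1 probe set (mean 4.13) differed by -0.01 in the right atrium (adjusted p = 0.966).

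Slc16a6 (MCT7), another monocarboxylate carrier, lay at 6.63, 6.35 and 6.34 on the right atrium sham arrays and at 6.97, 6.92 and 6.89 after the shunt, again without overlap. It rose there by 0.48 ± 0.09 (adjusted p = 0.0192), a call lost without right shunt arrays 1 or 2 or right sham arrays 2 or 3 (changes of 0.43 to 0.49). Left atrium values were 7.01, 6.84 and 6.93 in sham and 7.0, 7.21 and 7.20 after the shunt, which overlap (0.21 ± 0.09, adjusted p = 0.355). Over both atria Slc16a6 rose by 0.34 ± 0.07 (adjusted p = 0.0119), whichever array was left out.

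The member with the largest rise was Slc16a12 (MCT12), a carrier of creatine. In the left atrium it lay at 7.21, 7.81 and 7.67 in sham and at 8.87, 8.69 and 8.62 after the shunt, a rise of 1.16 ± 0.22 (adjusted p = 0.0321), or 2.24-fold. On the right atrium arrays it lay at 8.18, 9.26 and 8.75 in sham, the widest spread of the 4 groups, and at 8.97, 8.90 and 8.98 after the shunt (0.22 ± 0.22, adjusted p = 0.624). The left call was lost without any 1 right atrium shunt or left sham array, right sham array 3, or left shunt arrays 1 or 2 (changes of 0.98 to 1.29, highest adjusted p = 0.0935). The average over both atria, 0.69 ± 0.15 (adjusted p = 0.0262), lost its call without any 1 right shunt array, right sham array 3, left shunt arrays 1 or 2, or left sham array 1 (0.60 to 0.70). A second Slc16a12 probe set rose by 1.11 in the left atrium (adjusted p = 0.00186) and by 0.73 in the right (adjusted p = 0.0124).

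The other 6 Slc16 members were not called in either atrium. They include Slc16a3, the lactate exporter MCT4 (0.15 ± 0.09 right and 0.05 ± 0.09 left), and Slc16a7, the pyruvate carrier MCT2 (0.24 ± 0.14 and 0.06 ± 0.14).

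In the amino acid class (Slc6, Slc7 and Slc38, 37 members), 3 members were called in the right atrium (2.97% of all probe sets) and 2 in the left (0.751%). Slc6a6, the taurine carrier, lay at 8.78, 8.62 and 8.48 in right atrium sham and at 9.30, 9.36 and 9.16 after the shunt. Left atrium values were 8.44, 8.58 and 8.32 and 9.33, 9.11 and 8.77. The shunt arrays were above the sham arrays in each atrium without overlap. Slc6a6 rose by 0.64 ± 0.13 in the right atrium (adjusted p = 0.024), and the left difference was 0.62 ± 0.13 (adjusted p = 0.0512). The right call was lost without right shunt arrays 1 or 2 or right sham arrays 2 or 3 (0.57 to 0.64). Over both atria it rose by 0.63 ± 0.09 (adjusted p = 0.00288) whichever array was left out. A second Slc6a6 probe set differed by 0.79 in the right atrium (adjusted p = 0.158), and the mean of both probe sets (0.71) did not pass there.

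Slc38a3 (SNAT3), a glutamine carrier, lay at 6.79, 6.77 and 7.10 in right atrium sham and at 6.45, 6.31 and 6.51 after the shunt. Its left atrium values were 7.32, 7.08 and 7.34 in sham and 6.79, 6.51 and 6.78 after the shunt. All shunt arrays were below all sham arrays of their atrium. It fell by 0.46 ± 0.11 in the right atrium (adjusted p = 0.0498) and by 0.56 ± 0.11 in the left (adjusted p = 0.0451), each close to the threshold. The right call was lost in 9 of 12 exclusions, all but left shunt arrays 2 and 3 and left sham array 2 (-0.52 to -0.35), and the left call in 10 of 12, all but left shunt array 3 and right sham array 3 (-0.64 to -0.47). Averaged over both atria the fall of 0.51 ± 0.08 (adjusted p = 0.00464) held in all 12.

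Slc6a17, a neutral amino acid carrier of synaptic vesicles, lay at 9.50, 9.60 and 9.64 in right atrium sham and 9.12, 9.03 and 9.27 after the shunt, and at 9.37, 9.58 and 9.42 and 8.91, 8.70 and 9.29 in the left atrium, with no overlap in either. It fell by 0.46 ± 0.09 over both atria (adjusted p = 0.0136, called in all 12 exclusions), with -0.44 ± 0.13 in the right and -0.49 ± 0.13 in the left atrium, neither past the threshold. Left shunt array 3 (9.29) lay next to the sham arrays, and without it the left fall was 0.65 (adjusted p = 0.00662). Of its 4 other probe sets, 1 also fell over both atria (-0.37, adjusted p = 0.00655) and 3 were not called (-0.21 to 0.03).

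Slc38a6 lay at 4.98, 4.85 and 4.95 in right atrium sham and 5.28, 5.33 and 5.29 after the shunt, and at 4.79, 4.48 and 4.76 and 4.86, 5.14 and 5.40 in the left atrium. It rose by 0.41 ± 0.09 over both atria (adjusted p = 0.0196), a call lost without right shunt array 2 or right sham array 2 (0.39 to 0.41). In neither atrium alone was it called, and the groups did not overlap in either.

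Slc7a7 (y+LAT1), an exchanger of cationic for neutral amino acids that pairs with Slc3a2, was called in the left atrium. It lay there at 6.72, 6.63 and 6.96 in sham and at 6.03, 6.30 and 6.31 after the shunt, a fall of 0.56 ± 0.11 (adjusted p = 0.0385). Right atrium values were 6.24, 6.06 and 6.30 and 6.34, 6.15 and 6.26, which overlap (0.05 ± 0.11, adjusted p = 0.859). The left minus right difference of its shunt effects was -0.60 ± 0.15 (adjusted p = 0.154). The call was lost in 10 of 12 exclusions, all but left shunt array 3 and right sham array 2 (-0.63 to -0.46), and when the right atrium arrays were kept out of the model.

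Slc6a3, the dopamine carrier, was dim. It lay at 4.49, 4.30 and 4.35 in right atrium sham and at 3.95, 3.98 and 4.01 after the shunt, a fall of 0.40 ± 0.09 (adjusted p = 0.0296), with 3.96, 4.02 and 4.17 and 4.12, 3.96 and 4.21 in the left atrium (0.05 ± 0.09). This call was lost without any 1 right atrium array (-0.44 to -0.35), and a second probe set did not pass (-0.17).

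Amino acid and monoamine carriers listed by name and not called in either atrium include the creatine carrier Slc6a8 (0.12 ± 0.08 right, -0.05 ± 0.08 left) and Slc7a5, the large neutral amino acid carrier LAT1 (-0.02 ± 0.15 and -0.08 ± 0.15). Slc7a1, the arginine carrier CAT1, differed by 0.19 ± 0.10 and 0.09 ± 0.10, and the glutamine carriers Slc38a1 and Slc38a2 by 0.15 ± 0.07 and -0.10 ± 0.07 in the right atrium and by -0.14 ± 0.07 and -0.09 ± 0.07 in the left. Slc7a8 (LAT2) differed by -0.41 ± 0.15 and -0.20 ± 0.15. The dim ones among them were the noradrenaline carrier Slc6a2 (0.09 and -0.07), the serotonin carrier Slc6a4 (-0.27 and -0.29), Slc7a2 (0.05 and -0.08), the cystine carrier Slc7a11 (0.03 and 0.08) and the lysosomal arginine sensor Slc38a9 (0.16 and -0.06).

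Of the 15 organic ion carriers (Slc22), 3 fell in the right atrium (1.07% of all probe sets) and 1 fell in the left (0.467%). None was called higher in either atrium (limma), where 1.9% and 0.283% of all probe sets were. Slc22a3 (OCT3), the extraneuronal carrier of noradrenaline and other monoamines, lay at 7.77, 7.72 and 7.70 on the right atrium sham arrays and at 6.70, 7.04 and 7.11 after the shunt. The left atrium arrays lay at 6.97, 7.32 and 7.33 in sham and at 6.34, 6.31 and 6.60 after the shunt. Every shunt array was below every sham array of its atrium. It fell by 0.78 ± 0.12 in the right atrium (adjusted p = 0.00894) and by 0.79 ± 0.12 in the left (adjusted p = 0.0138), and over both atria by 0.78 ± 0.09 (adjusted p = 0.000509). The right call and the average held in all 12 exclusions. The left call was lost without left shunt array 2 or left sham arrays 2 or 3 (changes of -0.73), and when the right atrium arrays were kept out of the model, with the same change.

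Slc22a17, the receptor of lipocalin-2, lay at 8.56, 8.49 and 8.56 in right atrium sham and at 8.31, 8.07 and 8.06 after the shunt, and in the left atrium at 8.73, 8.75 and 8.83 and 8.38, 8.29 and 8.50. The groups did not overlap in either atrium. It fell by 0.39 ± 0.08 in the right atrium (adjusted p = 0.0323), with -0.38 ± 0.08 in the left (adjusted p = 0.0672), and over both by 0.38 ± 0.06 (adjusted p = 0.00442, in all 12 exclusions). The right call was lost without right shunt arrays 2 or 3 or any 1 right sham array (-0.41 to -0.35).

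Slc22a8 (OAT3), an organic anion exchanger best known from the kidney, was dim. On the right atrium arrays it lay at 4.91, 4.90 and 4.65 in sham and at 4.25, 4.19 and 4.11 after the shunt, a fall of 0.64 ± 0.11 (adjusted p = 0.0106) that was lost without right shunt array 2 (-0.64, adjusted p = 0.0509). In the left atrium it lay at 4.69, 4.49 and 4.34 in sham and at 4.89, 5.0 and 4.74 after the shunt, with all shunt arrays above all sham arrays (0.37 ± 0.11, adjusted p = 0.135). A second, dimmer probe set (mean 3.32) differed by -0.09 in the right atrium (adjusted p = 0.564). Its genomic neighbours on each side are the members Slc22a6 and Slc22a25, whose right atrium differences were 0.12 and -0.01, neither called. Slc22a4, the ergothioneine carrier, differed by 0.01 ± 0.11 and 0.00 ± 0.11.

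**Figure D2:**
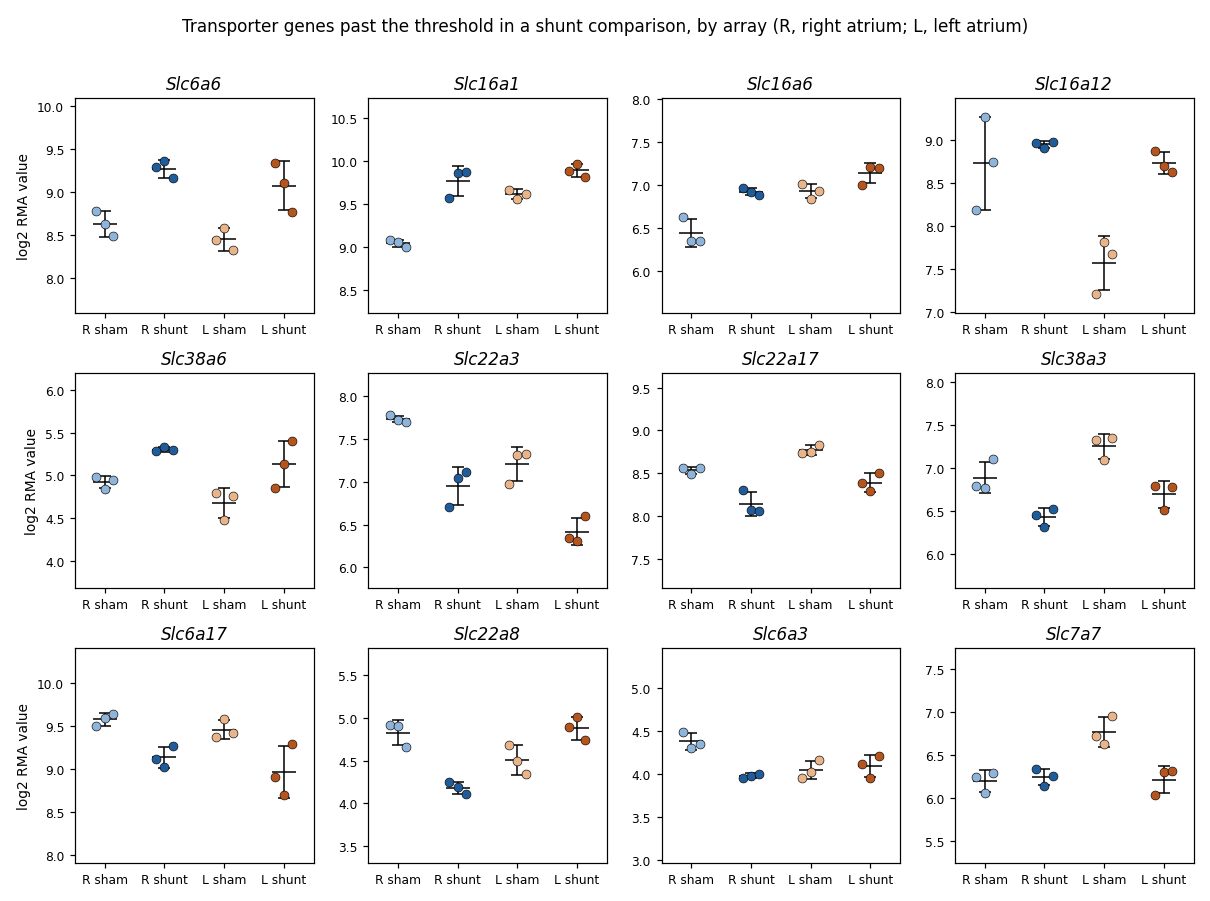
Log2 RMA values on each of the 12 arrays for the 12 transporter genes past the threshold in a shunt comparison (right, left or the average of both atria); points are arrays, bars the mean ± SD of 3, and all panels span the same height. Slc22a3, Slc22a17, Slc38a3 and Slc6a17 are lower on every shunt array than on every sham array of the same atrium. Slc6a6, Slc16a1 and Slc38a6 are higher in the same way, while Slc22a8 is lower on the right and higher on the left.

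Whether the shunt effect differed between the atria was tested with the interaction, the left minus the right shunt effect. No member of 61 was called (limma, adjusted p under 0.05; 0.0258% of all probe sets were called, 0.0226% higher and 0.00322% lower, and 13 members had an unadjusted p under 0.05). Slc22a8 came closest, with a difference of 1.01 ± 0.15 (adjusted p = 0.0507). Next were the glycine carrier Slc6a9 (0.56 ± 0.11, adjusted p = 0.133), the small neutral amino acid carrier Slc7a10 (0.50 ± 0.12, adjusted p = 0.142), Slc7a7 and the glutamine carrier Slc38a5 (0.61 ± 0.16, adjusted p = 0.166). The other probe sets of Slc6a9 gave differences of 0.18 and -0.03, neither called. For Slc7a10 the values were 4.12, 4.03 and 3.88 in right sham, 3.59, 3.75 and 3.80 in right shunt, 3.69, 3.69 and 3.78 in left sham and 3.95, 3.97 and 3.88 in left shunt. For Slc38a5 they were 3.86, 3.82 and 3.91, 3.67, 3.36 and 3.58, 3.53, 3.68 and 3.87 and 4.08, 4.06 and 3.77 in the same order. Both were lower on the right and higher on the left after the shunt on average, with neither atrium past the threshold. Slc22a8 did pass without right sham array 3 (1.09, adjusted p = 0.0435) and without left shunt array 3 (1.08, adjusted p = 0.034). With the replicate number as a block it passed (adjusted p = 0.0231), and with left and right pools of the same number and operation as blocks, chosen after seeing the data, it did not (adjusted p = 0.0687). Its second probe set gave a difference of 0.35 (adjusted p = 0.216). The larger right than left rise of Slc16a1 (-0.45, adjusted p = 0.18) and the larger left rise of Slc16a12 (0.94, adjusted p = 0.22) are therefore not shown to differ between the atria.

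The promoters of 4 members that moved with the shunt are shown because these carriers moved in the same direction (Slc16a1, Slc16a12 and Slc6a6 higher) or against it (Slc22a3). Each is the 250 bases before the gene's start, 5′ to 3′ on the gene's strand, from RefSeq (build GRCr8), and 47 of 61 members matched an entry. Capitals mark matches, on either strand, to 6 motifs chosen with the expression results known: the TATA box TATAAA, the E-box CACGTG, the cAMP response element TGACGTCA, the amino acid response core TGATGNAA, the GC box GGGCGG and the CCAAT box CCAAT.
Slc16a1, chr2:194812410-194812659, plus strand: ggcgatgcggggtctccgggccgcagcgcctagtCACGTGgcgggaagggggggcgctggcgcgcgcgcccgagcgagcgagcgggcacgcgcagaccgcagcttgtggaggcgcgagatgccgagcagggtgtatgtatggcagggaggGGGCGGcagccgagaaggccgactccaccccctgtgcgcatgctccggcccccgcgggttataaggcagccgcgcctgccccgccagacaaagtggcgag
Slc16a12, chr1:241621717-241621966, minus strand: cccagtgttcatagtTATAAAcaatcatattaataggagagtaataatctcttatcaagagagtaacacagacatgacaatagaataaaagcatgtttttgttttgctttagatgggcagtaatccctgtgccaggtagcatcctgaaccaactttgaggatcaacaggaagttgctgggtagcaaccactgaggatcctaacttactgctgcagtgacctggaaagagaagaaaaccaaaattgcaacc
Slc6a6, chr4:125752252-125752501, plus strand: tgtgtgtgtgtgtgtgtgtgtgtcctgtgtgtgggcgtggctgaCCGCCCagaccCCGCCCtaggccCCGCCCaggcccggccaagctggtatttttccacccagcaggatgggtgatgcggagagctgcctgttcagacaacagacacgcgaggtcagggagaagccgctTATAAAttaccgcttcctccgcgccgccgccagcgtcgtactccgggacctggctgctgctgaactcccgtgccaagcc
Slc22a3, chr1:50782968-50783217, plus strand: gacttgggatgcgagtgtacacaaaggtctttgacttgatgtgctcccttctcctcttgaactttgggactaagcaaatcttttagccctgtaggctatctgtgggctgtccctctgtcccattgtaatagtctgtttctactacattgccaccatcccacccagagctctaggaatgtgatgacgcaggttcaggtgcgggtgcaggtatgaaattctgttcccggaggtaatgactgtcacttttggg

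The Slc16a1 window held an E-box, as did 4 of 47 members (8.51%) and 5.59% of 33469 RefSeq promoters, and 1 GC box. Slc6a6 held 3 GC boxes, read here as CCGCCC on the other strand, and a TATA box. GC boxes were in 17 of 47 members (36.2%) and in 30.5% of all promoters, and TATA boxes in 8.51% and 12.9%. Slc16a12 held a TATA box far from the start and Slc22a3 held none of the 6 motifs. The GC content was 74% for Slc16a1, 64% for Slc6a6, 48.8% for Slc22a3 and 39.6% for Slc16a12, against a median of 51.2% over all promoters. The amino acid response core was in 4.26% of members and 3.4% of all promoters, the cAMP element in 2.13% and 1.59%, and CCAAT in 27.7% and 34%. None of the 6 motifs was in all 3 promoters shown for genes that rose. Slc38a6, which also rose over both atria, is not shown, and its window held a cAMP element and a GC box.

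The second question was how the carriers differ between the chambers. In sham animals 20 of 61 members differed between left and right (32.8%, against 36.1% of all probe sets), 11 higher on the left (20.1% of all probe sets) and 9 lower (16.1%). After the shunt 13 of 61 did (21.3%, against 37.7%), 5 higher (20.2%) and 8 lower (17.4%). Left and right arrays did not overlap for 29 members in sham (50.4% of all probe sets) and for 20 after the shunt (48.9%). The share in sham lies near that of all probe sets, and the share after the shunt lies below it. These shares were not matched for brightness, and 39 of 61 members lay below the median of all probe sets. Of the members called, 7 were called in both, 6 of them in the same direction: Slc6a8 and Slc22a17 were higher on the left and Slc7a5, Slc38a4, Slc38a9 and Slc22a3 lower. The remaining one, Slc22a8, was lower on the left in sham (-0.32 ± 0.11, adjusted p = 0.0332) and higher after the shunt (0.69 ± 0.11, adjusted p = 0.000358). Its second probe set was called in neither state (-0.15, adjusted p = 0.167, and 0.20, adjusted p = 0.0574). These comparisons use the same arrays as the shunt comparisons above and are not independent of them.

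**Figure D3:**
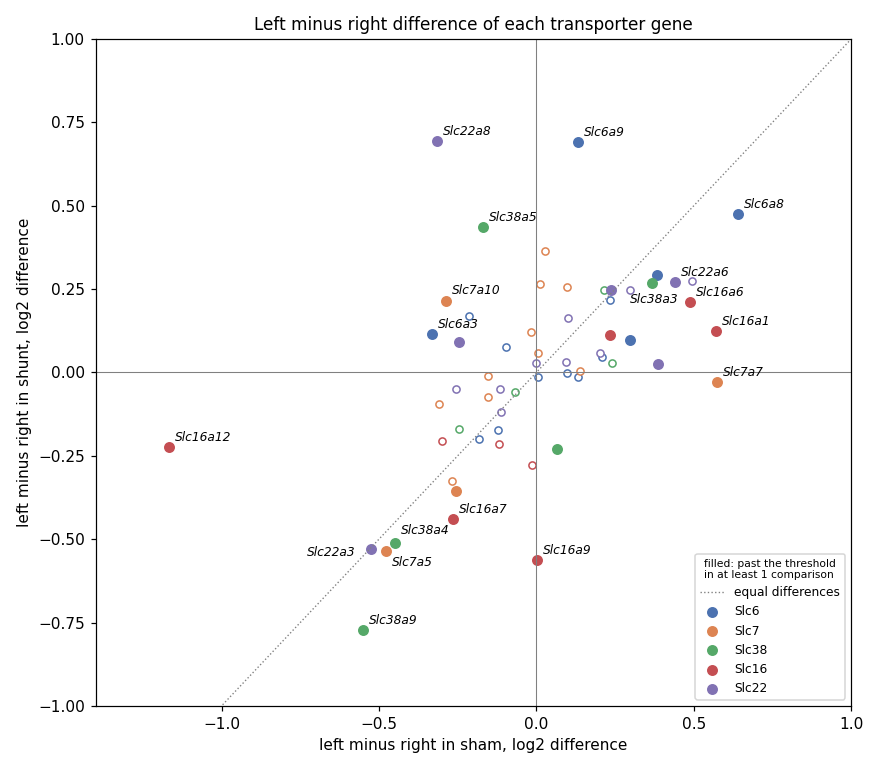
Left minus right log2 difference of each of the 61 transporter genes in sham animals (horizontal) and after the shunt (vertical), coloured by family, with filled points for genes past the threshold in at least 1 of these comparisons. Genes near the dotted line, such as Slc22a3 and Slc38a4, had like differences in both states; Slc16a12 lies far below 0 in sham (-1.17) and close to 0 after the shunt (-0.22), and Slc22a8 changes sign.

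The largest chamber difference in sham was that of Slc16a12, lower on the left by 1.17 ± 0.22 (adjusted p = 0.00114). After the shunt it differed by -0.22 (adjusted p = 0.44), while its second probe set was still lower on the left (-0.79 in sham and -0.41 after the shunt, both called). Slc16a1 was higher on the left in sham by 0.57 ± 0.09 (adjusted p = 0.000281) and Slc16a6 by 0.49 ± 0.09 (adjusted p = 0.00131). After the shunt these differences were 0.12 and 0.21, neither called, while the second, dim Slc16a1 probe set was higher on the left in sham (0.53) and after the shunt (0.36, adjusted p = 0.023). Slc16a9 (MCT9), a carnitine carrier, showed the reverse: 0.00 in sham, and after the shunt 5.16, 5.09 and 5.30 on the right against 4.79, 4.69 and 4.37 on the left, lower by 0.56 ± 0.11 (adjusted p = 0.00233).

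Slc6a8, the creatine carrier, lay at 9.42, 9.21 and 9.43 in right and 10.07, 9.91 and 9.99 in left atrium sham, and at 9.52, 9.42 and 9.47 and 9.94, 9.94 and 9.96 after the shunt. It was higher on the left by 0.64 ± 0.08 in sham (adjusted p = 4.66e-05) and by 0.47 ± 0.08 after the shunt (adjusted p = 0.000505), without overlap. Slc6a9 (GlyT1), the glycine carrier, lay at 6.71, 6.70 and 6.53 and 6.69, 6.92 and 6.72 in right and left sham (0.13, not called), and at 6.43, 6.36 and 6.39 and 7.11, 7.11 and 7.04 after the shunt, higher on the left by 0.69 ± 0.08 (adjusted p = 5.16e-05). Of the other, dimmer Slc6a9 probe sets, 1 was higher on the left after the shunt (0.37, adjusted p = 0.0236) and 1 was not called (0.11, adjusted p = 0.25). Slc7a7 was higher on the left in sham by 0.57 ± 0.11 (adjusted p = 0.00132) and differed by -0.03 after the shunt.

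Lower on the left was Slc38a9, at 3.86, 3.70 and 3.84 in right and 3.27, 3.41 and 3.05 in left sham and at 4.09, 3.89 and 3.89 and 3.16, 3.12 and 3.28 after the shunt. The differences were -0.55 ± 0.10 (adjusted p = 0.000845) and -0.77 ± 0.10 (adjusted p = 0.000103). Slc22a3 was lower on the left by 0.53 ± 0.12 in sham (adjusted p = 0.00557) and by 0.53 ± 0.12 after the shunt (adjusted p = 0.00541). Slc7a5, which brings leucine into cells, lay at 5.86, 6.05 and 6.20 in right and 5.22, 5.85 and 5.60 in left sham, and at 6.06, 5.93 and 6.05 and 5.57, 5.62 and 5.25 after the shunt (-0.48 ± 0.15, adjusted p = 0.0235, and -0.54 ± 0.15, adjusted p = 0.0132). Slc38a4, a carrier of neutral and cationic amino acids, lay at 4.02, 4.01 and 3.75 and 3.62, 3.42 and 3.39 in sham and at 3.98, 3.86 and 3.53 and 3.47, 3.20 and 3.16 after the shunt (-0.45 and -0.51).

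The next members complete the 12 largest differences in sham among members past the threshold. The organic anion exchanger Slc22a6 (OAT1) lay at 5.12, 5.10 and 5.07 on the right and 5.79, 5.45 and 5.37 on the left. For Slc22a13 the values were 3.37, 3.51 and 3.34 and 3.80, 3.87 and 3.71, and for the glycine carrier Slc6a5 3.80, 3.59 and 3.56 and 4.07, 4.23 and 3.79, which overlap. They were higher on the left by 0.44, 0.39 and 0.38. Smaller called differences in sham were those of Slc38a3 (0.37), Slc6a13 (0.30), Slc22a17 (0.24) and Slc16a8 (0.23), and of Slc6a3 (-0.33), Slc7a10 (-0.29) and Slc22a2 (-0.25). After the shunt the other called members were Slc38a5 (0.44), Slc16a7 (-0.44), Slc7a1 (-0.35), Slc22a17 (0.25) and Slc38a1 (-0.23).

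Calls were lost in sham for 10 of 20 members when 1 array was left out. Slc7a5 lost its call without right sham arrays 2 or 3 or left sham array 1 (-0.47 to -0.31). Slc38a4 lost it without right sham arrays 1 or 2 or left sham array 3 (-0.41 to -0.40), Slc6a5 without right sham arrays 2 or 3 or left sham array 2 (0.28 to 0.35), Slc22a6 without left sham array 1 (0.31) and Slc7a10 without right sham array 1 (-0.23). For Slc38a3 this was so without right sham arrays 1 or 2 or left sham arrays 1 or 3 (0.31 to 0.33), and for Slc22a8 without right sham arrays 1 or 2 or left sham arrays 2 or 3 (-0.31 to -0.23). Slc16a8 lost it without any 1 right sham array or left sham arrays 2 or 3 (0.20 to 0.24). Slc22a2 (-0.27 to -0.21) and Slc22a17 (0.21 to 0.26) lost it without any 1 sham replicate or left shunt array 1, and without right shunt array 1 or 2, respectively. After the shunt, Slc16a7 (-0.43 to -0.30) and Slc22a17 (0.19 to 0.25) lost it without right shunt arrays 2 or 3 or left shunt arrays 1 or 3. Slc7a1 lost it without replicate 3 of either shunt group (-0.32 to -0.25), and Slc38a1 without right shunt arrays 2 or 3 or left shunt arrays 1 or 2 (-0.23 to -0.20).

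Same-numbered left and right arrays of an operation deviated slightly together: all 6 correlations of their deviations from the group means were positive, from 0.08 to 0.15, while 3 of the 12 between operations were. With these pairs as blocks, an alternative chosen after seeing the data, 21 members were called in sham and 17 after the shunt. The share of all probe sets called with these blocks is not given here. Slc22a23 lay at 6.65, 7.13 and 7.05 in right and 6.91, 7.75 and 7.65 in left sham, and at 6.97, 6.53 and 6.96 and 7.24, 6.76 and 7.29 after the shunt. The left array was above the right array of the same number in all 6 pairs. Its differences of 0.49 ± 0.22 (adjusted p = 0.0974) and 0.27 ± 0.22 (adjusted p = 0.345) passed with the blocks (adjusted p = 0.00276 and 0.0385). Slc7a6 and Slc38a10 also passed in sham, and Slc6a5, Slc7a6, Slc7a9, Slc7a14 and Slc38a3 after the shunt. Calls lost with the blocks were those of Slc22a2 and Slc22a17 in sham and of Slc38a1 and Slc22a17 after the shunt.

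Probe sets of a gene disagreed for some members. For Slc38a1, 1 of 2 other probe sets was higher on the left after the shunt by 0.66 (adjusted p = 0.00679), opposite to the one described, and the other was lower (-0.39, adjusted p = 0.0248). A further probe set of Slc7a1 was higher on the left after the shunt (0.29, adjusted p = 0.0102), also opposite. A second probe set of Slc6a6 was lower on the left in sham (-0.81) and after the shunt (-1.31), where the brighter one differed by -0.18 and -0.20 and was not called. For Slc6a17 the brightest probe set was not called between the chambers (-0.12 in sham and -0.17 after the shunt). Of its other probe sets, 1 was higher on the left in sham (0.32) and after the shunt (0.68, adjusted p = 0.000268), 1 was higher after the shunt (0.42) and 1 was lower in sham (-0.34). The dimmer probe set of Slc22a23 was higher on the left by 0.91 in sham and by 0.96 after the shunt, and its brighter one was not called.

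Genes that act with these carriers were taken from fixed lists. Of 5 measured carrier partners none was called in a shunt comparison of either atrium. Bsg, the chaperone of Slc16a1, differed by 0.10 in the right atrium and -0.00 in the left, and Slc3a2, the heavy chain of the Slc7 heterodimers, by -0.10 and 0.00. Bsg was higher on the left in sham (0.44) and after the shunt (0.33), and so was the partner Clstn1 (0.80 and 0.52). The partners Emb (-0.38) and Slc3a2 (-0.23) were lower on the left in sham and not called after the shunt. Of 11 other amino acid carriers Slc1a3, a glutamate carrier, rose in the right atrium (0.42, adjusted p = 0.0436) and none was called in the left. Of 21 genes of amino acid response and sensing, Vldlr rose on the right (0.47) and Ddit3, a stress-response factor, on the left (0.41).

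Of 9 genes of lactate and pyruvate handling, Pdk4, a kinase that restrains pyruvate oxidation, fell in the right (-0.49) and the left atrium (-0.99), and the other 8, among them the lactate dehydrogenase genes Ldha and Ldhb, were not called. Of 8 creatine and taurine genes, Gamt, which completes creatine synthesis, fell in the right (-0.52, adjusted p = 0.0133) and the left atrium (-0.52, adjusted p = 0.0229). Gatm, which starts creatine synthesis, was not called after the shunt (0.17 and 0.05) but was lower on the left in sham (-0.50) and after the shunt (-0.63). Of 10 arginine genes, Odc1, which makes polyamines from ornithine, rose in the right atrium (0.48, adjusted p = 0.00569). None of 9 carnitine genes and none of 7 measured monoamine genes was called in a single atrium (limma). Averaged over both atria, the carnitine gene Cpt1a (-0.29, adjusted p = 0.0283) and the monoamine gene Ddc (-0.28, adjusted p = 0.0148) were lower. The monoamine-degrading Maoa differed by 0.68 in the right and 0.35 in the left atrium, and Maob by 0.01 and -0.68, none of them called.

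Markers of other cells moved with the groups, and their part in these results was not tested. Of 6 ventricular cardiomyocyte markers 5 rose in the right atrium, where their mean level ran from 8.06 to 8.26 in sham and from 8.63 to 9.66 after the shunt, with replicate 1 the lowest. In the left atrium 1 of 6 rose, and their mean level ran from 6.57 to 6.85 in sham and from 7.11 to 7.50 after the shunt. The mean of 6 atrial cardiomyocyte markers ran from 11.97 to 12.05 in right sham and 11.68 to 11.81 in right shunt, and from 11.97 to 12.01 and 11.78 to 11.90 on the left. Of these, Kcna5, an atrial potassium channel, fell in the right atrium (-0.92, adjusted p = 0.00839). The other 5 were not called there: Tbx5 (-0.38), Myl7 (-0.12), Sln (-0.08), Myl4 (-0.03) and Nppa (0.01). None of the 6 was called in the left atrium, where Kcna5 differed by -0.66 and Tbx5 by -0.22. Of 9 macrophage markers 3 rose there (7.39 to 7.48 in sham and 7.89 to 7.94 after the shunt). In a fit that kept right shunt array 1 and dropped arrays 2 and 3 of its group, chosen after seeing the data, Slc16a1 differed by 0.53, Slc16a6 by 0.53, Slc6a6 by 0.67, Slc22a3 by -1.03, Slc22a8 by -0.57, Slc38a3 by -0.44 and Slc22a17 by -0.23. With 1 array in the group this fit takes the spread from the other groups, so its values are given without a test. The beta-actin 3′ minus 5′ difference, a sign of RNA quality, was on average 0.31 higher in the right atrium after the shunt (1.91 to 2.03) than after sham (1.58 to 1.82). The GAPDH difference was only 0.015 higher there, with overlapping arrays (0.35 to 0.38 after the shunt and 0.32 to 0.40 after sham). Between the chambers the beta-actin difference differed more, by -0.35 left minus right in sham and by -0.72 after the shunt. All left arrays (1.14 to 1.39) were below all right arrays, and the GAPDH difference differed by -0.14 and -0.15.

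Among the left atrium shunt arrays, replicate 3 carried the highest mean levels of the 9 adipocyte markers (6.81, against 5.76 and 6.16 on the other 2 arrays) and of the 10 neuronal markers (4.98, against 4.38 and 4.56), with Ucp1, the uncoupling protein of brown fat, at 7.56 against 4.22 and 4.66. All 3 left shunt arrays (4.38 to 4.98) were above the left sham arrays (4.14 to 4.22) in the neuronal markers, of which 2 of 10 rose. Without left shunt array 3, 7 members were called in place of 4: Slc6a6 (0.77), Slc16a12 (1.22), Slc22a3 (-0.88), Slc6a17 (-0.65), Slc7a7 (-0.60), Slc38a3 (-0.60) and Slc22a17 (-0.43). The share of all probe sets called in that fit is not given here, so the higher count is not a result about the members. Between the chambers, the mean of 6 mesothelial markers ran from 6.50 to 6.87 on the right and from 7.20 to 7.49 on the left in sham. The ventricular markers ran from 8.06 to 8.26 and from 6.57 to 6.85. The mesothelial markers were split: 4 of 6 were called higher on the left in sham, and Wt1 (-0.23) and Lrrn4 (0.09) were not called. After the shunt 2 were higher on the left and Wt1 was lower (-0.53). Of 5 smooth muscle markers 4 were higher on the left in each state (7.13 to 7.32 right and 7.72 to 7.80 left in sham, 7.27 to 7.41 and 7.76 to 7.87 after the shunt). The mean of the fibroblast markers ran from 11.37 to 11.45 on the right and 11.67 to 11.70 on the left in sham, but the markers were split. Col1a1 (1.17), Col1a2 (0.86) and Col3a1 (0.30) were called higher on the left and Dcn lower (-0.31). Pdgfra (-0.17) and Lum (-0.28) were not called. After the shunt 5 of 9 macrophage markers and 4 of 6 ventricular markers were lower on the left (17.4% of all probe sets). The ventricular marker Lbh was higher on the left in sham (1.11) and after the shunt (0.52). The part of these markers and of RNA quality in the chamber differences was not tested.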

How the data were processed

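RNA of 12 pools of 2 atrial appendages was hybridised, 1 pool per array, to 1-colour Affymetrix arrays. The authors deposited log2 values per probe set. Per the submitters' processing notes these are RMA values, whose version is not given in the sources used here. Of 31099 probe sets, 57 controls were left out. Groups and replicate numbers came from the sample titles. The annotation supplied named 1 gene for 20826 probe sets, several for 436 and none for 9780. Values were used as deposited, without a filter. All 12 arrays entered one linear model with a mean for each group, in limma 3.58.1 in R 4.3.3 (two-sided, Benjamini-Hochberg over 31042 probe sets, threshold 0.05). The number of arrays limits the precision.

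Values per array are given for members past the threshold in a shunt comparison, for the 12 largest left minus right differences in sham among members past the threshold; for further members, some of them listed by name whatever their values, differences are given. Members and lists were chosen with earlier results of these data known. The alternatives are in the closing section. Mean marker levels are means of log2 values.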

Additional observations from a re-analysis of the deposited data

How the results depend on the processing

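Of the 9 members called in the average over both atria, 7 were called in every alternative planned, namely Slc6a6, Slc6a17, Slc38a3, Slc16a1, Slc16a6, Slc22a3 and Slc22a17. The count of 9 members ran from 7 to 9 when 1 array was left out. No counts are given for the fit with right shunt array 1 alone in its group, chosen after seeing the data. That fit takes the lone array's spread from the other groups. In the right atrium the count of 8 ran from 2 to 10 when 1 array was left out. In the left atrium the count of 4 ran from 0 (without left shunt array 2 or left sham arrays 2 or 3) to 7 (without left shunt array 3) when 1 array was left out, was 7 without dim probe sets and 7 with array weights, and 0 with the right atrium arrays kept out of the model (limma; 16 members then had an unadjusted p under 0.05). For left minus right in sham the count of 20 was 11 without dim probe sets, when 22 members were tested, and 13 to 25 with 1 array left out. After the shunt the count of 13 was 10 to 16 with 1 array left out. For the interaction, where no member was called, Slc22a8 was the 1 member called with the trend and robust options, with array weights, with 1 probe set per gene, with the mean of the probe sets and with the replicate block, and the count was 0 to 1 with 1 array left out. As the mean of its probe sets, Slc38a1 turned from -0.23 to 0.012 for left minus right after the shunt. The labels do not say what the replicate numbers share. The 18 correlations between same-numbered arrays ran from -0.10 to 0.15, with 6 of 6 positive between left and right of an operation, and 9 of 12 arrays correlated best with their own number. With the replicate block the counts were 8 in the right atrium, 5 in the left, 9 for their average, 1 for the interaction, and 19 and 15 for left minus right in sham and after the shunt. With blocks within each operation, chosen after seeing the data, the last 3 counts were 0 (limma; 14 members had an unadjusted p under 0.05), 21 and 17. Counts in this section are given without the share of all probe sets called in the same fits, so they describe the calls of the members only. Signal over background is not known for these values, so differences of dim members are less certain than those of bright ones.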
